A study of Danio rerio with 10 samples.

Results

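The genes described here are 9 zebrafish genes that recycle or carry retinoids around the photoreceptors: rpe65a, LRAT, rdh5, rlbp1b, rlbp1a, rgra, rgrb, irbp and stra6. They were taken by symbol, and irbp and LRAT are spelled as the gene tables spell them. All 9 are among the 18910 genes of the Ensembl table at 96 hours post fertilization (hpf), and irbp and stra6 are also among the 14236 genes of the table at 3.3 hpf. The set was chosen with the 96 hpf difference already known, so the 96 hpf differences of these genes are given as a description and carry no p-value.

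RNA was sequenced from pooled whole zebrafish of the AB line. The exposed animals received benzo[a]pyrene (BaP), a combustion product and ligand of the aryl hydrocarbon receptor, at 50 µg/L. Of the controls the labels give nothing more than 0.1 mL/L. There were 3 BaP and 3 control libraries at 3.3 hpf, when the embryo is a blastula with no eye, and 2 BaP and 2 control libraries at 96 hpf, when the larva has a working retina. Whether replicates are separate clutches is not labelled, so a p-value speaks of the spread among the libraries at hand and that spread may be technical.

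In the visual cycle, light turns the 11-cis-retinal of an opsin into the all-trans form, which is then handed to neighbouring cells and turned back. In the pigment epithelium LRAT stores all-trans-retinol as an ester, RPE65 turns the ester into 11-cis-retinol and RDH5 oxidizes this to 11-cis-retinal. CRALBP, the product of rlbp1, binds the 11-cis forms inside cells of the pigment epithelium and Müller glia. RGR is an opsin of the pigment epithelium and Müller glia that binds all-trans-retinal, IRBP carries retinoids through the space between photoreceptors and pigment epithelium, and STRA6 takes up retinol from its blood carrier. The 9 genes are not all bound to 1 cell type: in mammals IRBP is made by the photoreceptors themselves. In pooled whole larvae the cells of origin could not be checked, and in such bulk samples a change in the number of cells of a type and a change in RNA per cell cannot be told apart.

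Levels are CPM, the reads of a gene over a fixed library total of 1000000, rescaled here between libraries. They are not corrected for gene length, so levels are compared between libraries for 1 gene and never between genes. Differences are on log2(CPM + 0.5), BaP minus control, with the standard error (SE) of a limma fit over the whole table. The 96 hpf libraries held 13.2 to 17.7 M reads assigned to listed genes, and those at 3.3 hpf 17.5 to 22.2 M, both estimated from the CPM of 1 read.

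At 96 hpf 8 of the 9 genes were higher in both BaP libraries than in both control libraries, and rlbp1a overlapped. Among all genes 25.8% had every BaP library above every control. The sizes differed: rpe65a, LRAT, rdh5 and rlbp1b stood between 2.16 and 2.56 higher on the log2 scale, while rgra, rgrb, irbp and stra6 stood between 0.98 and 1.15 higher. The median difference of the 9 was 1.15, beside 0.01 over all genes, and 1.32% of all genes exceeded a difference of 1. In the fit over all genes, 7 of the 9 passed an adjusted p of 0.05, all higher in BaP, where 0.381% of genes did so (0.423% in either direction); rgra and rlbp1a did not pass. Since that contrast served to choose the genes, nothing is read from these counts. The 7 became 4 on CPM as deposited (rpe65a, rlbp1b, rdh5 and rgrb) and 0 when the spread was estimated without a trend on expression. Without either control library stra6 did not pass, and without either BaP library rgra did.

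**Figure D1:**
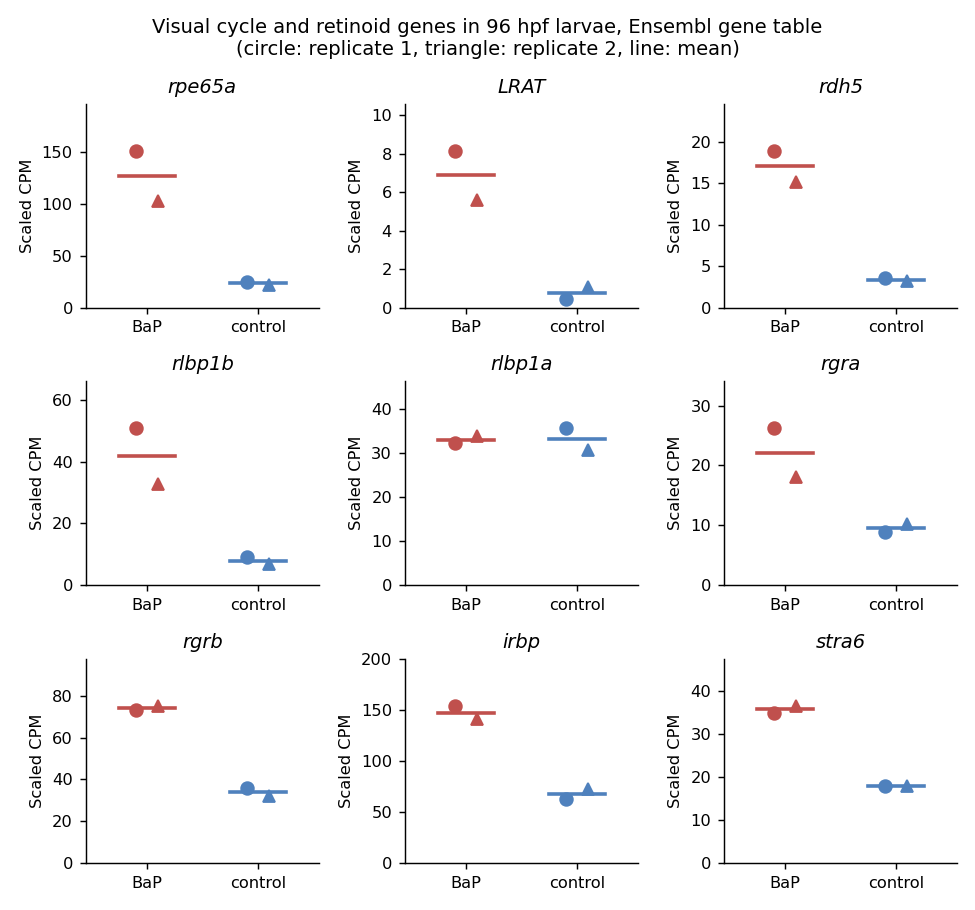
Scaled CPM of each of the 9 genes in the 96 hpf libraries, with BaP on the left and control on the right; points are libraries and lines are means of 2. Both BaP points lie above both control points in every panel except that of rlbp1a, where the groups overlap.

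The isomerase of the cycle, rpe65a, had 151 CPM in BaP replicate 1 and 103 CPM in BaP replicate 2, against 25.3 and 21.6 CPM in control replicates 1 and 2. Its mean was 127 ± 34.0 CPM in BaP larvae and 23.5 ± 2.57 CPM in control larvae (SD, n = 2 each), a log2 difference of 2.4 (SE 0.19), or 5.26-fold. It rested on at least 333 reads in every library, and 11 of the 18910 genes had a larger difference. The BaP libraries were far above the controls but also far from each other, by 0.55 on the log2 scale.

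LRAT, named for the enzyme that makes the ester that RPE65 uses, was the lowest in reads of the set. It had 8.15 and 5.62 CPM in BaP replicates 1 and 2, against 0.455 and 1.10 CPM in control replicates 1 and 2. These are 127 and 94 reads in the BaP libraries and 6 and 19 reads in the controls. The mean was 6.89 ± 1.79 CPM in BaP larvae and 0.777 ± 0.455 CPM in control larvae (SD, n = 2 each), a log2 difference of 2.56 (SE 0.35). As the control level is close to the pseudocount, this value moved between 2.16 and 3.07 under other settings. The authors' tables keep genes above 1 CPM in at least 2 libraries, and LRAT met that through both BaP libraries and 1 control.

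The 11-cis-retinol dehydrogenase rdh5 had 18.9 and 15.2 CPM in BaP replicates 1 and 2, against 3.57 and 3.24 CPM in control replicates 1 and 2. Its mean was 17.1 ± 2.65 CPM in BaP larvae and 3.40 ± 0.231 CPM in control larvae (SD, n = 2 each), a log2 difference of 2.16 (SE 0.22), or 4.48-fold. The groups were apart by many times the distance between either pair of replicates.

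The paralogs that encode CRALBP stood apart. rlbp1b had 50.8 and 32.8 CPM in BaP replicates 1 and 2, against 9.03 and 6.83 CPM in control replicates 1 and 2, a log2 difference of 2.31 (SE 0.24), or 4.95-fold. rlbp1a had 32.1 and 33.7 CPM in BaP replicates 1 and 2, against 35.5 and 30.5 CPM in control replicates 1 and 2. Its log2 difference was -0.0011 (SE 0.14), and both BaP values lay between the controls. The ratio of rlbp1b to rlbp1a was thus 1.58 and 0.973 in the BaP libraries and 0.254 and 0.224 in the controls. Gene length cancels when this ratio is compared between libraries, though not in the ratio itself. Zebrafish divide CRALBP between pigment epithelium and Müller glia by paralog, and the tables do not show which cells the reads came from.

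The other isomerase genes lay below or among their controls. rpe65b had 11.9 and 7.68 CPM in BaP replicates 1 and 2, against 13.2 and 14.05 CPM in control replicates 1 and 2, a log2 difference of -0.48 (SE 0.24, limma adjusted p = 0.356). rpe65c, an isomerase of zebrafish Müller glia, had 2.97 and 1.60 CPM in BaP replicates 1 and 2, against 2.75 and 3.25 CPM in control replicates 1 and 2, a log2 difference of -0.37 (SE 0.33, limma adjusted p = 0.599). The ratio of rpe65a to rpe65b was 12.7 and 13.5 in the BaP libraries and 1.92 and 1.54 in the controls. A second acyltransferase gene, lrata, had 7.58 and 6.22 CPM in BaP replicates 1 and 2, against 5.69 and 4.28 CPM in control replicates 1 and 2. Its log2 difference was 0.44 (SE 0.25, limma adjusted p = 0.417). The difference between paralogs was not tested, since 1 of each pair was chosen on this contrast.

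**Figure D2:**
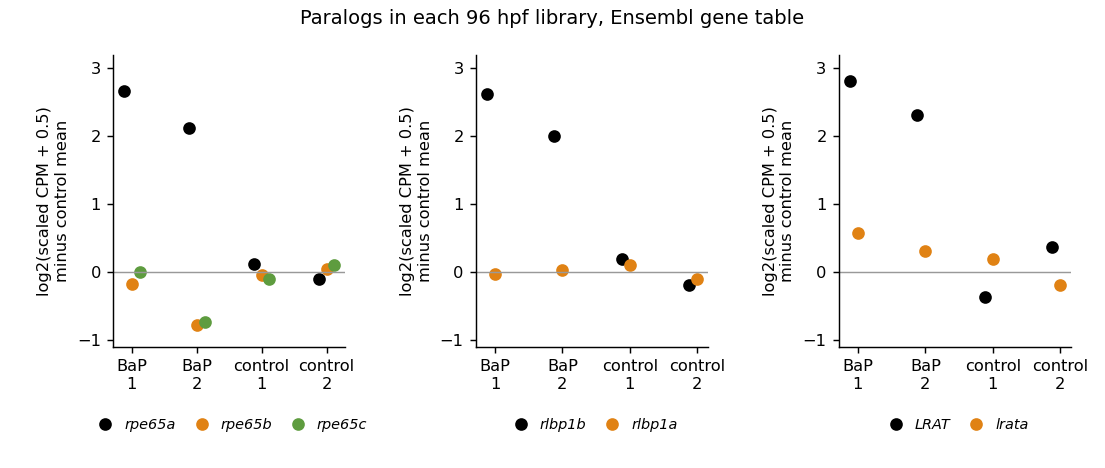
log2(scaled CPM + 0.5) of paralogs in each 96 hpf library, each gene set against its own control mean (grey line at 0). rpe65a, rlbp1b and LRAT lie about 2 or more above the line in both BaP libraries, while rlbp1a stays at it and rpe65b, rpe65c and lrata lie within 1 of it.

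The RGR opsins were both about double the control level. rgra had 26.2 and 18.1 CPM in BaP replicates 1 and 2, against 8.95 and 10.2 CPM in control replicates 1 and 2, a log2 difference of 1.15 (SE 0.22), or 2.22-fold. rgrb had 73.5 and 75.3 CPM in BaP replicates 1 and 2, against 35.8 and 32.3 CPM in control replicates 1 and 2, a log2 difference of 1.12 (SE 0.13), or 2.17-fold. Replicates of rgrb lay close together in both groups, whereas BaP replicates of rgra were 0.52 apart on the log2 scale. The ratio of rgrb to rgra was 2.81 and 4.15 in the BaP libraries and 4.004 and 3.17 in the controls, which overlap.

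The extracellular carrier irbp had 154 and 141 CPM in BaP replicates 1 and 2, against 62.8 and 72.2 CPM in control replicates 1 and 2. Its mean was 148 ± 9.25 CPM in BaP larvae and 67.5 ± 6.66 CPM in control larvae (SD, n = 2 each), a log2 difference of 1.13 (SE 0.13), or 2.18-fold. Of its Ensembl transcripts, irbp-001 had a log2 difference of 1.09 (SE 0.14) and irbp-202 of 1.41 (SE 0.33). A current zebrafish reference places another gene, irbpl, within the span of irbp, so how reads were divided there is uncertain.

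The retinol receptor stra6 had 34.8 and 36.5 CPM in BaP replicates 1 and 2, against 17.8 CPM in each control replicate. Its mean was 35.6 ± 1.15 CPM in BaP larvae and 17.8 ± 0.00398 CPM in control larvae (SD, n = 2 each), a log2 difference of 0.98 (SE 0.14), or 1.98-fold. The controls rested on 234 and 307 reads, whose counting error is larger than the distance between them.

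**Figure D3:**
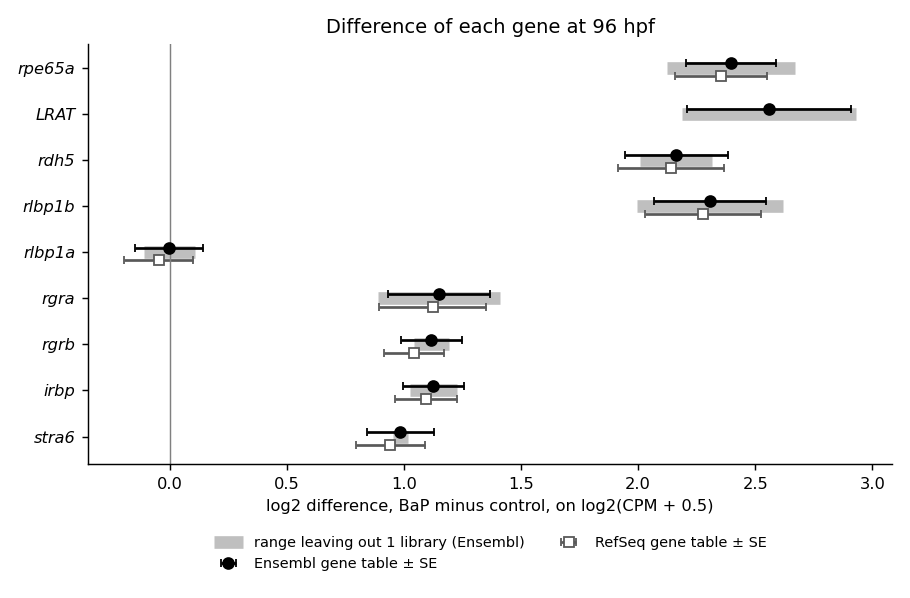
log2 difference of each gene at 96 hpf, BaP minus control, with bars of 1 SE; filled points are the Ensembl gene table, open squares the RefSeq gene table, and grey bands the range when 1 library is left out. The upper 4 genes lie above 2 in both tables where listed, rlbp1a lies at 0, and the lower 4 lie near 1.

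The second annotation counts the same reads and is no replicate. Of the 9 symbols 8 are listed in the RefSeq table (12415 genes in all), and 6 of these passed, all higher in BaP, where 0.475% of genes did so (0.516% in either direction). The differences there were 2.35 for rpe65a, 2.14 for rdh5, 2.28 for rlbp1b, -0.05 for rlbp1a, 1.12 for rgra, 1.04 for rgrb, 1.09 for irbp and 0.94 for stra6. LRAT is not a symbol of that table. The entry zgc:194355, named lratb.2 in a current reference and singled out after its values were seen, held the same estimated reads in each library as LRAT, namely 127 and 94 in BaP larvae and 6 and 19 in control larvae. Its log2 difference was 2.60 (SE 0.36). Both transcripts of rdh5 were higher in BaP, by 2.08 (SE 0.27) for rdh5-001 and 1.92 (SE 0.34) for rdh5-201.

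The BaP libraries at 96 hpf differed from each other. On the first principal component, 68.6% of the variance, BaP replicate 2 lay at 52.9 and BaP replicate 1 at 4.08, against -20.6 and -36.4 for control replicates 1 and 2. Yet 6 of the 8 genes that were apart from control were higher in BaP replicate 1 than in BaP replicate 2, or 75.0%. Of the 4882 genes with every BaP library above every control, whatever the size of their difference, 27.0% were. The order is not particular to these genes. Among the genes nearest in value to rpe65a, rlbp1b, rdh5 and LRAT, given below, foxq1a, trim108, cyp2x7, tm6sf2 and hamp2 had it too. There ptgdsb had the reverse, at 763 and 802 CPM in BaP replicates 1 and 2. Those genes were picked by a likeness that takes in this order. The gaps, BaP replicate 1 minus BaP replicate 2 on the log2 scale, were 0.62 for rlbp1b, 0.55 for rpe65a, 0.52 for rgra, 0.50 for LRAT, 0.31 for rdh5 and 0.13 for irbp. They were -0.03 for rgrb and -0.07 for stra6. The direction for rgrb and stra6 rests on the scaling factors, 0.995 for BaP replicate 1 and 0.945 for BaP replicate 2. On CPM as deposited both genes were higher in BaP replicate 1. On scaled values the order of the BaP libraries was thus shared by 6 of the 8, with the smallest gap at irbp. The control libraries had no such order. Control replicate 1 minus control replicate 2 was -0.74 for LRAT, -0.20 for irbp and -0.18 for rgra. It was 0.38 for rlbp1b, 0.22 for rpe65a and 0.12 for rdh5. For LRAT and irbp the control gap was larger in size than the BaP gap, and for rlbp1b, rpe65a, rgra and rdh5 it was smaller.

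By their 4 library values, rpe65a and rlbp1b were the closest pair of the set. The root mean square difference between their log2 profiles, centred but not scaled, was 0.08. rgrb and stra6 differed by 0.09, irbp and stra6 by 0.12, rgra and irbp by 0.14, rdh5 and rpe65a by 0.15, and LRAT and rpe65a by 0.35. Among 14746 other named genes averaging above 1 on the log2 CPM scale, the profiles nearest to rpe65a were foxq1a at 0.24, trim108 at 0.26 and cyp2x7 at 0.29. Those nearest to rlbp1b were trim108 at 0.25, tm6sf2 at 0.27 and foxq1a at 0.29. For rdh5 they were trim108 at 0.12, foxq1a at 0.17 and ptgdsb at 0.19, and for LRAT cyp2x7 at 0.18, foxq1a at 0.25 and hamp2 at 0.25. None of these 14746 genes was as near to rpe65a or rlbp1b as those were to each other. The opposite held for rdh5, LRAT, rgra, rgrb, irbp, stra6 and rlbp1a. Each had a gene among the 14746 that was nearer than any other gene of the set. Genes with clone names or lower averages were not searched. The forkhead gene foxq1a, itself at a log2 difference of 2.17, came among the nearest 3 of all of rpe65a, rlbp1b, rdh5 and LRAT. The nearest to rgra were npas4b at 0.07, the melanosome gene oca2 at 0.09 and ociad2 at 0.11. The nearest to rgrb were mb at 0.05, phox2bb at 0.05 and btr02 at 0.08, to irbp fgf1b at 0.06, gsto1 at 0.07 and amy2a at 0.09, and to stra6 msrb1a at 0.06, gsr at 0.06 and cel.2 at 0.06. Flat profiles are common, and the nearest to rlbp1a were scrt1a, PPFIBP1 (3 of 3) and kctd12.1, all at 0.01. Without scaling, the distance takes in the size of the BaP difference, which served to choose the genes. Genes with differences of like size thus tend to lie near each other, and a shared neighbour is no test of a link. With 4 libraries these are descriptions only.

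At 3.3 hpf rpe65a, LRAT, rdh5, rlbp1b, rlbp1a, rgra and rgrb are not listed, which at this age means above 1 CPM in fewer than 3 libraries. In the limma fit 0 of 14236 genes passed an adjusted p of 0.05, or 0%, and 685 had an unadjusted p below 0.05. stra6 had 26.3, 19.3 and 20.8 CPM in BaP replicates 1 to 3, against 29.1, 28.7 and 24.2 CPM in control replicates 1 to 3. Its mean was 22.1 ± 3.67 CPM in BaP embryos and 27.3 ± 2.72 CPM in control embryos (SD, n = 3 each), a log2 difference of -0.30 (95% interval -0.72 to 0.11, limma adjusted p = 0.907). BaP replicate 1 lay above control replicate 3, so the groups overlapped.

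The carrier irbp was near the floor of the 3.3 hpf table, on 24 to 81 reads. It had 1.20, 1.32 and 3.61 CPM in BaP replicates 1 to 3, against 2.37, 2.31 and 2.36 CPM in control replicates 1 to 3. The log2 difference was -0.29 (95% interval -1.22 to 0.65, limma adjusted p = 0.932). BaP replicate 3 was the highest of all and the other BaP replicates the lowest, so the value rests on single libraries: without BaP replicate 3 it was -0.69 and without BaP replicate 1 it was -0.06. In the RefSeq table the differences were -0.29 for stra6 and -0.27 for irbp. There 0 of 9548 genes passed in the limma fit, or 0%, and 488 had an unadjusted p below 0.05. The Ensembl interval of stra6, -0.72 to 0.11, leaves room for a fall or a small rise. That of irbp leaves room for larger changes in either direction.

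**Figure D4:**
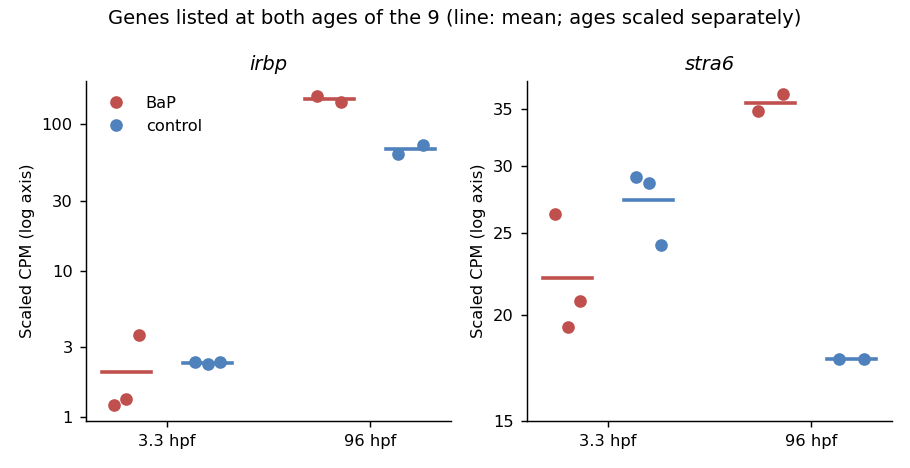
Scaled CPM of irbp and stra6 on log axes at 3.3 hpf (3 libraries per group) and 96 hpf (2 per group), BaP left of control at each age, lines at the means; the ages were scaled separately. At 3.3 hpf the groups overlap for both genes, and at 96 hpf both BaP points lie above both control points.

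In the rest of the retinoid pathway no listed gene passed the limma fit at 96 hpf in either direction, where 2972 of the 18910 genes had an unadjusted p below 0.05. Of 16 other listed genes of the retinal visual cycle, 0 passed, 2 had an unadjusted p below 0.05, 11 of 16 were above 0 and the median was 0.16, where 51.6% of all genes were above 0. They hold rpe65b, rpe65c, retinol dehydrogenases, the transporter gene abca4a and the binding protein gene rbp4l, but not lrata. The smallest p belonged to retsat, a retinol saturase, at 34.1 ± 4.75 CPM in BaP larvae and 23.7 ± 1.46 CPM in control larvae (log2 0.51, adjusted p = 0.230), and to dhrs9, a short-chain dehydrogenase, at 25.7 ± 1.43 CPM in BaP larvae and 18.3 ± 2.74 CPM in control larvae (log2 0.49, adjusted p = 0.257; SD, n = 2 each).

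Of 12 listed carriers and cellular binding proteins 0 passed, 5 had an unadjusted p below 0.05 and 11 were above 0, with a median of 0.34. The blood carrier rbp4, the ligand of STRA6, had 1074 and 1084 CPM in BaP replicates 1 and 2, against 753 and 601 CPM in control replicates 1 and 2 (log2 0.68, SE 0.15, limma adjusted p = 0.165). The cellular retinol-binding gene rbp1a had 39.0 and 40.6 CPM in BaP replicates 1 and 2, against 27.5 and 21.6 CPM in control replicates 1 and 2 (log2 0.70, SE 0.16, limma adjusted p = 0.165). Neither group overlapped its control, and neither difference passed.

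Provitamin A uptake and cleavage, which supplies retinal from carotenoids, held 7 listed genes, of which 0 passed, 3 had an unadjusted p below 0.05 and 6 were above 0, with a median of 0.57. The uptake receptor scarb1 had 24.9 and 22.6 CPM in BaP replicates 1 and 2, against 11.2 and 13.1 CPM in control replicates 1 and 2 (log2 0.94, SE 0.17, limma adjusted p = 0.0838). The carotenoid cleavage gene bcmo1l, listed as zgc:63614, had 7.38 and 15.1 CPM in BaP replicates 1 and 2, against 3.19 and 4.51 CPM in control replicates 1 and 2 (log2 1.37, SE 0.34, limma adjusted p = 0.184). The median of this list was the highest among the 5 other retinoid lists.

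Retinoic acid synthesis and breakdown held 6 listed genes, 0 passing, 0 with an unadjusted p below 0.05, 5 above 0 and a median of 0.17. The smallest p belonged to the retinal dehydrogenase aldh8a1 (log2 0.48, limma adjusted p = 0.339) and to cyp26c1, which breaks retinoic acid down (log2 0.36, limma adjusted p = 0.422). The retinoic acid and retinoid X receptors held 7 listed genes, 0 passing, 1 with an unadjusted p below 0.05, 4 above 0 and a median of 0.01. Their smallest p belonged to rxrba (log2 -0.70, limma adjusted p = 0.250) and rarga (log2 -0.30, limma adjusted p = 0.327). At 3.3 hpf the 5 lists held 9, 3, 5, 2 and 6 listed genes in the same order. Of these 0 passed the limma fit. Those with an unadjusted p below 0.05 were 1 of the 9 genes of the first list and 1 of the 6 receptors.

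**Figure D5:**
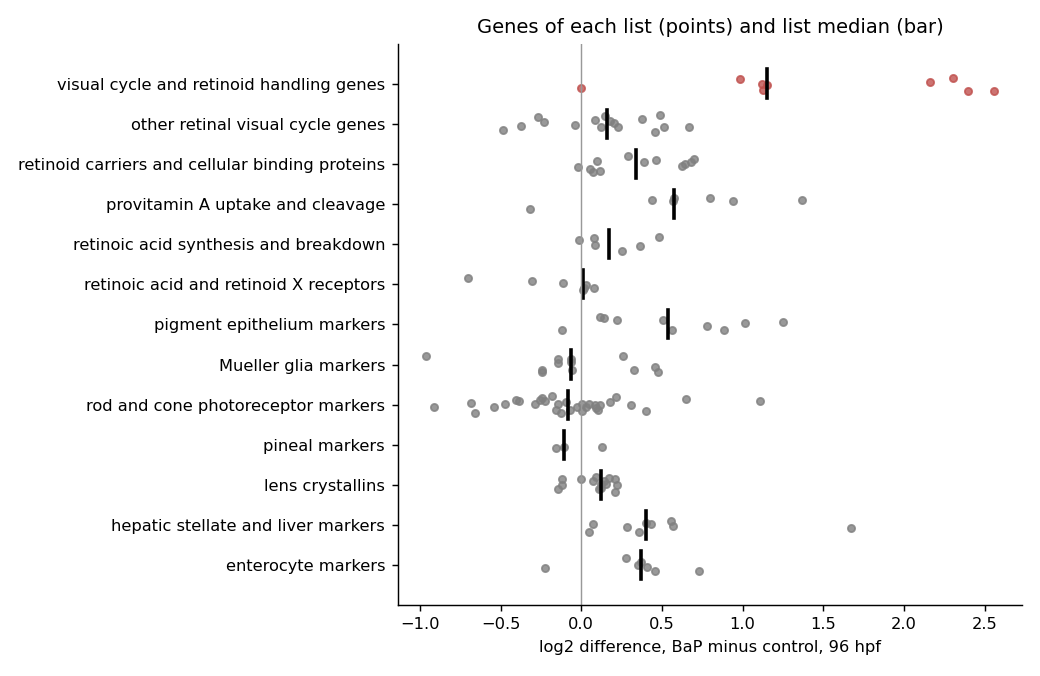
log2 difference at 96 hpf, BaP minus control, of each listed gene (points) and the median (bar) of the 9 genes (top row, red) and of lists of pathway and cell type genes. In the Ensembl table the 9 genes have a median of 1.15, while the medians of the other lists run from -0.11 to 0.57. The 9 were chosen with this contrast known and are left out of the other lists, so the gap is no test.

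Markers of the cells concerned were set beside the 9 genes. Of 13 pigment epithelium markers, most of which the melanophores of the skin also express, 10 are listed and tyrp1a, mitfb and best1 are not. Of the 10 listed 0 passed, 5 had an unadjusted p below 0.05, 9 were above 0 and the median was 0.54. Their summed level was 978 and 786 CPM in BaP replicates 1 and 2, against 593 and 571 CPM in control replicates 1 and 2. BaP replicate 1 was thus the higher, the order on scaled values of 6 of the 8 genes apart from control but not of rgrb and stra6. The pigment synthesis gene dct had 122 and 78.1 CPM in BaP replicates 1 and 2, against 44.4 and 37.2 CPM in control replicates 1 and 2 (log2 1.25, SE 0.21, limma adjusted p = 0.0666). Its relative tyrp1b had 292 and 226 CPM in BaP replicates 1 and 2, against 133 and 145 CPM in control replicates 1 and 2 (log2 0.88, SE 0.15, limma adjusted p = 0.0682). The part of the pigment markers in the result was not tested.

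Of 12 Müller glia markers, most of which brain glia also express, all are listed, 0 passed, 4 had an unadjusted p below 0.05, 4 were above 0 and the median was -0.06. Their summed level was 3068 and 3484 CPM in BaP replicates 1 and 2, against 2927 and 2897 CPM in control replicates 1 and 2. Of these 12 markers, 6 had every BaP library below every control and 4 had every BaP library above. Among all 18910 genes these counts were 4637 and 4882. The smallest p belonged to the glutamate transporter slc1a3b (log2 -0.96, limma adjusted p = 0.181) and the carbonic anhydrase ca2 (log2 0.48, limma adjusted p = 0.231). Of 35 rod and cone markers 32 are listed, 7 had an unadjusted p below 0.05, 14 were above 0 and the median was -0.08. Here 1 passed, the cone phosphodiesterase subunit gene pde6h, at 267 and 360 CPM in BaP replicates 1 and 2, against 152 and 135 CPM in control replicates 1 and 2 (log2 1.11, SE 0.16, limma adjusted p = 0.0387). The next, the arrestin gene saga, had a log2 difference of -0.68 (limma adjusted p = 0.0884). The summed rod and cone level was 9116 and 9900 CPM in BaP replicates 1 and 2, against 9658 and 9730 CPM in control replicates 1 and 2, so the groups overlapped. By gene, 12 of the 32 listed had every BaP library below every control and 6 had every BaP library above.

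Retinoid genes are also used outside the retina. Of 9 listed liver markers 0 passed, 2 had an unadjusted p below 0.05, all 9 were above 0 and the median was 0.40. Their sums were 5436 to 8611 CPM in BaP larvae and 4221 to 5307 CPM in control larvae. Nearly all of them are hepatocyte or plasma protein genes, so stellate cells are hardly covered. The smallest p belonged to the liver fatty acid binding gene fabp10a (log2 1.67, SE 0.26, limma adjusted p = 0.0526) and to the transferrin gene tfa (log2 0.40, limma adjusted p = 0.307). In the RefSeq table fabp10a passed (limma adjusted p = 0.0466). Of 7 listed enterocyte markers 0 passed, 2 had an unadjusted p below 0.05, 6 were above 0 and the median was 0.37, led by fabp2 (log2 0.46, limma adjusted p = 0.291) and anpepb (log2 0.73, limma adjusted p = 0.299). Of 15 listed lens genes 0 passed, 0 had an unadjusted p below 0.05 and the median was 0.12, led by crygn2 (log2 0.21, limma adjusted p = 0.502) and cryaa (log2 0.22, limma adjusted p = 0.505). Of 3 listed pineal markers 0 passed, 0 had an unadjusted p below 0.05 and the median was -0.11, led by tph2 (log2 0.13, limma adjusted p = 0.819) and asmt (log2 -0.16, limma adjusted p = 0.821). The part of these cell types in the result was not tested.

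Exposure was checked on targets of the aryl hydrocarbon receptor. At 96 hpf cyp1a had 780 and 851 CPM in BaP replicates 1 and 2, against 16.0 and 15.7 CPM in control replicates 1 and 2 (log2 5.64, limma adjusted p = 7.8e-07), and all 4 listed targets rose. On scaled values cyp1a was higher in BaP replicate 2 than in BaP replicate 1, as were rgrb and stra6. The order was the reverse for 6 of the 8 genes that were apart from control. On CPM as deposited rgrb and stra6 were higher in BaP replicate 1. What these orders reflect was not tested. At 3.3 hpf cyp1a had a log2 difference of -0.02 and did not pass.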

How the data were processed

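The deposited values are CPM for genes and transcripts under Ensembl release 70 and RefSeq annotation, which the authors scaled to a column total of 1000000. TopHat, Partek, edgeR and the build Zv9 stand in the submitters' processing notes, without versions or roles. Listed genes exceed 1 CPM in at least 3 libraries (3.3 hpf) or 2 (96 hpf). Of values under 50 CPM in the Ensembl gene tables, 49.7% to 54.5% at 3.3 hpf and 58.0% to 73.7% at 96 hpf were whole reads within 0.05 reads, so no count test was run; 0 columns were left unmapped, though the RefSeq gene columns at 3.3 hpf carry letters in place of replicate numbers and were mapped to groups only.

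CPM were rescaled by TMM (trims of 30% and 5%) and tested with limma 3.58.1 in R 4.3.3 (lmFit, eBayes with trend) on log2(CPM + 0.5), each age separately, with Benjamini-Hochberg adjustment over all genes at 0.05. The fit was also run on simulated data with independent libraries and a spread drawn from a trend on expression. That run does not speak for the calls in the real libraries. The 9 genes and all lists were chosen with earlier results of these data known. Named are the 9 genes, the 3 nearest profiles of each, cyp1a, and of each list the passing genes and the 2 with the smallest p. Also named after their values were seen are the paralogs, zgc:194355 and fabp10a in RefSeq. Members were matched by symbol, list genes also by synonym in a current reference. The labels give no batch. Replicate numbers were not taken as pairing: deviations of same-numbered libraries correlated at -0.257 at 96 hpf and at -0.441 to -0.0108 at 3.3 hpf. Alternatives were median-ratio (RLE) scaling, CPM as deposited, pseudocounts of 0.1 and 1, a minimum of 3 CPM in every library of a group, a spread without a trend or robust, a replicate block, the RefSeq and transcript tables, and each library left out.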

Additional observations from a re-analysis of the deposited data

Results flagged for a closer look

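The log2 difference of the retinol receptor stra6, BaP minus control, was -0.30 at 3.3 hpf and 0.98 at 96 hpf, 1.29 apart. All 3 BaP libraries lay below the control mean at 3.3 hpf and both lay above it at 96 hpf. At 3.3 hpf the groups overlapped and the 95% interval, -0.72 to 0.11, includes 0 (limma adjusted p = 0.907), so no direction is shown at that age. The carrier irbp stood at -0.29 at 3.3 hpf and 1.13 at 96 hpf, with BaP libraries on both sides of the control mean at 3.3 hpf. The difference between ages was not tested, because the 96 hpf values served to choose the gene.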

How the results depend on the processing

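The 8 genes other than rlbp1a kept a positive difference at 96 hpf in all 128 values under other settings, from 0.89 to 3.07, of which 116 moved by less than the replicate SD and 12 by more. For these 8 genes the values with 1 library left out had to be positive, since both BaP libraries lay above both control libraries. Those values say nothing of the steadiness of the sign. rlbp1a ran from -0.11 to 0.11, with 13 of 16 values below 0. At 3.3 hpf all 34 values of irbp and stra6 were below 0, and the stricter filter of 3 CPM left out irbp. At both ages the 3 CPM filter, the spread settings and the replicate blocks cannot move a difference. Their values repeat the main one and say nothing of its steadiness. Counts over all genes were less steady. At 96 hpf 80 genes of the whole Ensembl table passed, and the count was 38 on CPM as deposited, 2 with a spread without a trend, 132 with the replicate block and 98 to 3434 with 1 library left out, the highest without BaP replicate 1. In the RefSeq table the count was 64, and it was 33 on CPM as deposited, 8 without a trend and 9 to 2621 with 1 library left out. How many genes these counts share was not computed. A crossed pairing, chosen after seeing the data, gave 2102 and 1264. Of the 9 genes 7 passed, against 4 on CPM as deposited, 0 without a trend and 6 to 8 with 1 library left out. The number with every BaP library above every control was 8, and 8 to 9 with 1 library left out. Leaving out a library cannot lower this number, so that range is no check of it. At 3.3 hpf 0 passed, and 0 to 1 with 1 library left out (1 without BaP replicate 2). The replicate block changed no call among the 9 genes. The cause of these shifts was not tested. A group left with 1 library is assumed to vary like the other. With 2 libraries a group, LRAT, at 6 and 19 reads in the controls, is the value that depth limits most.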
